A study of Mus musculus with 8 samples.

Results

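The cells labelled Cd200+ in the authors' annotation of mouse joint tissue are a class of fibroblasts named after Cd200, and 2012 of 24227 annotated cells (of which 21731 are fibroblasts) carry that label. All 2012 were taken, with no further selection, and the other annotated classes were Il6+, Lining, Mmp3+ and Pi16+ fibroblasts, chondrocytes and osteoblasts. The study profiled CD45- cells of ankle and wrist joints by droplet single-cell RNA sequencing, in which each counted transcript is a unique molecular identifier (UMI). Arthritic animals carried the hTNFtg197 transgene, which makes human TNF, on the B6-Tg(TNF)197Gkl strain, and had also received Il23mc for 9 days. All animals were 8 to 10 weeks old. Hashtag antibodies on CD45 and B2m marked the animal that each cell came from.

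The 5 groups were as follows. In 3 IL-17-inhibited animals the arthritis was treated with an antibody to mouse IL-17a, and in 3 TNF-inhibited animals with an antibody to human TNF. A further 3 arthritic animals were untreated. In 5 arthritic animals the cells were sorted for FAP (fibroblast activation protein) and Pdpn before loading. The 3 healthy animals were wild type and untreated. Each of the 3 unsorted libraries held 3 arthritic animals of 1 condition and 1 healthy animal, and the fourth library held the FAP-sorted cells, so that each treatment is also 1 library and treatment and library cannot be told apart among arthritic animals. Every arthritic animal had both the transgene and Il23mc, and healthy animals had neither, so the effects of the 2 cannot be told apart.

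CD200 is a surface glycoprotein of the immunoglobulin superfamily whose receptor, CD200R, sits mainly on myeloid cells and restrains them. Osteomodulin, the product of Omd, is a small leucine-rich proteoglycan of mineralised tissue, and Col8a1 encodes a chain of the short network collagen VIII. Joint fibroblasts are broadly divided into a lining layer, which faces the joint cavity and secretes lubricant and proteases, and sublining cells around vessels and in the deeper tissue. Others lie at the attachments of tendon, ligament and capsule to bone and cartilage, where matrix genes of those tissues are also used.

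Cd200+ cells numbered 36 to 305 per animal, with 370400 to 3940598 UMIs per animal. The median per cell was 6863 to 7501 UMIs in FAP-sorted animals and 7748.5 to 12727.5 UMIs in unsorted animals. No Cd200+ cell barcode was shared between libraries, although 32 to 51 barcodes were shared between each pair of libraries. Cells labelled healthy went partly against their hashtag counts: their hashtag had the highest raw count in 29 of 66, 15 of 50 and 4 of 41 Cd200+ cells of healthy animals 1, 2 and 3, and in all of them after division by the library median. In the same animals, 3.03%, 14.0% and 9.76% of Cd200+ cells had a UMI of a Y-linked gene. Over all their fibroblasts the shares were 2.94%, 23.1% and 17.7%, against 2.34 to 4.87% in the arthritic animals called female. Whether healthy animals 2 and 3 hold cells of other animals of their libraries was not tested. By Y-linked genes and Xist 1 of 3 IL-17-inhibited, 2 of 3 TNF-inhibited, 1 of 3 untreated, 2 of 5 FAP-sorted and 0 of 3 healthy animals were male. Counts against the healthy animals are therefore also given for untreated animals against healthy animal 1, of the same library, alone. Fits with the library as a term, given below, set inhibited animals against the 1 healthy animal of their own library. That is animal 2 for TNF-inhibited and animal 3 for IL-17-inhibited animals. Without that term, their comparisons with healthy animals rest on all 3.

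Cd200+ cells differed from the other fibroblasts in a set of matrix genes of bone, cartilage and tendon. Levels are CPM, the UMIs of a gene in the summed cells of an animal scaled to a common total, and each gene's ratio is over the highest of the other 4 fibroblast classes in the same animal, with 5 CPM added. The annotation was made from these same cells, so these values describe the class and were not tested. The 3 given markers fitted the label: each was highest in Cd200+ cells in 17 of 17 animals. Omd had a median of 239 CPM and a median log2 ratio of 3.93, Col8a1 278 CPM and 3.37, and Cd200 186 CPM and 1.98. In the mouse genome build GRCm38, Cd200 (ENSMUSG00000022661) lies on the minus strand at chr16:45382135-45409053, Omd (ENSMUSG00000048368) on the plus strand at chr13:49582462-49592822, and Col8a1 (ENSMUSG00000068196) on the minus strand at chr16:57624258-57754737.

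Among the 25 genes with the largest ratios were further small leucine-rich proteoglycans. Chad (chondroadherin, which binds collagen and integrins in cartilage) had a log2 ratio of 3.51, and Fmod (fibromodulin, which regulates collagen fibril growth in tendon) 2.37 at a median of 1443 CPM. Col8a1 was joined by the collagen genes Col8a2 (2.82), Col11a1 (2.45) and Col12a1 (2.21), the last coding for a fibril-associated collagen of tendon and ligament. Signalling genes included Wnt16, a WNT ligand active in bone (3.44), Fgfr2, a fibroblast growth factor receptor (2.52), Igf2, an insulin-like growth factor (2.09), Pappa2, a protease of IGF-binding proteins (2.08), and Ostn, a secreted peptide of bone and muscle (3.08). Runx2, the transcription factor that commits cells to the osteoblast lineage, had a log2 ratio of 2.37 at 99.1 CPM. The others were Cilp2, Ptprd, Ecrg4, Fat4, Edil3, Itgbl1, Cpxm2, Slit2, Vipr2, Fibin and Pdgfrl, with log2 ratios of 1.75 to 3.27. Of the 25, 24 were highest in Cd200+ cells in 17 of 17 animals, and Cpxm2 in 15 of 17.

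By gene list, 6 of 14 measured tendon and ligament genes, 5 of 18 bone remodelling genes, 5 of 16 non-fibrillar collagens and 4 of 14 small leucine-rich proteoglycans were over 2-fold higher than in the highest other fibroblast class, against 154 of all 10015 measured genes (1.54%). In the same order, 2, 2, 8 and 1 genes of these lists were over 2-fold lower, so more non-fibrillar collagens were lower than higher. Of 22 fibrillar collagens 0 were over 2-fold higher and 6 lower, and of 17 elastic fibre genes 0 and 7. At the other end, 17 of 25 cytokine and chemokine genes, 13 of 22 IL-17 response genes, 8 of 10 lining markers and 9 of 10 Pi16+ sublining markers were over 2-fold lower than in the highest class, against 839 of the 10015 genes. Since the highest class for a lining or Pi16+ marker is usually the class it marks, these counts say little about the level in Cd200+ cells: the 10 lining markers summed to 2531 to 3167 CPM in Cd200+ cells and 2517 to 3149 CPM in Il6+ cells of untreated animals. The ratios above leave out osteoblasts and chondrocytes, and some of the 25 genes were also high in the osteoblasts of the same animals. Runx2 was lower than in osteoblasts in 17 of 17 animals (osteoblast median 147 CPM), and Cd200 was higher than in osteoblasts in only 2 of 17 (osteoblast median 265 CPM). Omd was higher than in osteoblasts in 11 of 17 animals, and Col8a1 and Igf2 in 17 of 17. Col11a1 was higher than in osteoblasts in only 3 animals, Ostn in 6, Fgfr2 in 7, Col12a1 in 8, and Ptprd and Slit2 in 10. The rest of the 25 were higher than in osteoblasts in 14 to 17 animals. Chondrocytes had comparable levels of Chad (180.0 CPM) and more Fmod (2568 CPM), with less Omd (29.7 CPM). Fmod was higher in Cd200+ cells than in chondrocytes in 0 of 17 animals and Col11a1 in 3. Chad and Cilp2 were so in 7, and Cpxm2, Fibin and Pdgfrl in 8. The rest of the 25 were higher than in chondrocytes in 13 to 17 animals.

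**Figure D1:**
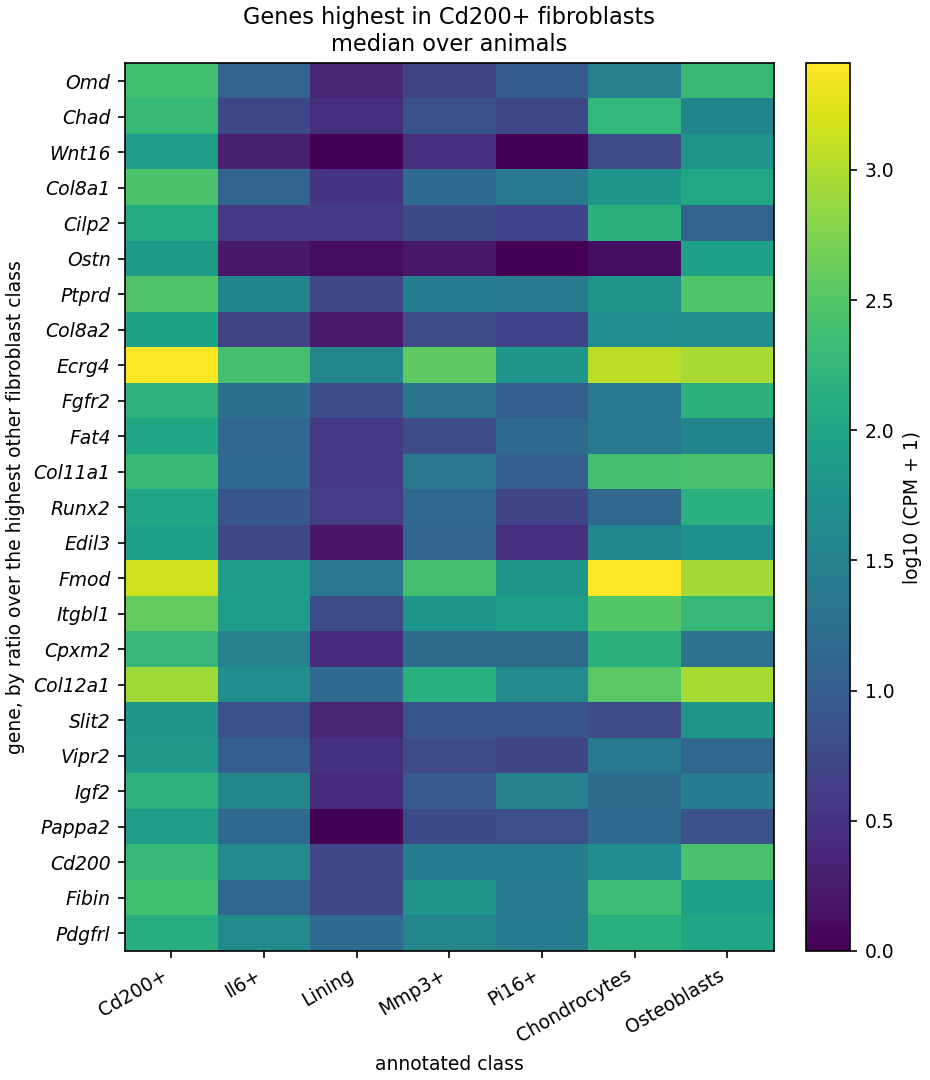
Median level over animals of the 25 genes that most set Cd200+ cells apart from the other fibroblast classes, in the 7 annotated classes (rows genes, columns classes, colour log10 of CPM plus 1). Cd200+ cells have the highest level of each gene among the 5 fibroblast classes. Osteoblasts share, among others, high Cd200, Runx2, Col11a1 and Col12a1, and chondrocytes share, among others, Chad, Fmod, Col11a1 and Cilp2.

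Single cells of the class did not all carry the markers. A Cd200 UMI was found in 57.3% of Cd200+ cells (1152 cells, 95% exact binomial interval 55.1 to 59.4%, counting error only), an Omd UMI in 57.7% and a Col8a1 UMI in 59.4%. With every cell thinned to 4000 UMIs, which left out 84 shallower cells, the shares were 40.6%, 42.2% and 44.6%. All 3 markers were found in 519 of the 2012 cells, 2 in 687, 1 in 578 and none in 228. Among the other fibroblasts, 77 cells had all 3 and 13580 had none. Free RNA can also give such UMIs, so other cells were counted too. Whether their UMIs came from free RNA or from their own transcripts was not tested. Among lining cells 6.29% had a Cd200 UMI (1.67% thinned; median 20575.5 UMIs), and among 470 keratinocyte-like barcodes 22.8% did (7.91% thinned; median 22484.5 UMIs), so these cells set no single background. In the same barcodes Omd UMIs were in 3.6% and Col8a1 UMIs in 6.0%. The share with a Cd200 UMI was 21.5% in Il6+ cells (11.5% thinned, median 10554 UMIs). That in Cd200+ cells, at a median of 10321 UMIs, was above all of these. Osteoblasts were higher, with a Cd200 UMI in 74.6% (54.1% thinned, median 14983 UMIs). They had an Omd UMI in 58.6% and a Col8a1 UMI in 38.4%. Endothelial-like barcodes, which are known for CD200, had a Cd200 UMI in 91.3%.

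Levels of the 3 markers varied between groups in different ways. Cd200 was at 254, 242 and 147 CPM in IL-17-inhibited animals 1 to 3, 178, 186 and 411 CPM in TNF-inhibited animals, 83.7, 253 and 199 CPM in untreated animals, 92.1, 84.1, 119, 81.4 and 110.2 CPM in FAP-sorted animals and 414, 416 and 387 CPM in healthy animals. The 3 healthy animals were close together and near the top, 1 TNF-inhibited animal was as high, and the FAP-sorted animals were low with little spread. None of the differences in Cd200 passed the test described below: untreated against healthy animals had a log2 fold change of -1.04 ± 0.34 (SE, adjusted p = 0.11) and FAP-sorted against untreated animals -0.86 ± 0.23 (adjusted p = 0.06). A Cd200 UMI was in 39.2% of Cd200+ cells of FAP-sorted animals (26.9% thinned), 61.9% of untreated animals (42.4%) and 74.5% of healthy animals (62.5%). In osteoblasts the shares ran the same way, at 57.9% in FAP-sorted, 75.8% in untreated and 94.1% in healthy animals, so this order was not particular to the class.

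Omd was at 378, 225 and 210.2 CPM in IL-17-inhibited animals, 203, 227 and 156 CPM in TNF-inhibited animals, 351, 344 and 457 CPM in untreated animals, 239, 187, 186, 270.5 and 201 CPM in FAP-sorted animals and 604, 538 and 449 CPM in healthy animals. TNF-inhibited animals were lowest of the unsorted groups and did not overlap untreated or healthy animals. Against healthy animals Omd fell in TNF-inhibited animals (log2 fold change -1.21 ± 0.23, adjusted p = 0.0029), with the call kept whichever animal was left out, and in IL-17-inhibited animals (log2 fold change -0.84 ± 0.23, adjusted p = 0.037), where it was lost in 5 of 6 such fits (adjusted p up to 0.18). Omd was at 865 CPM in healthy cells with 20 or more Ibsp UMIs and 977 CPM in those with as many osteocalcin UMIs. The other 106 healthy cells were at 346 CPM. Such bone-transcript cells, described below, were more common in healthy animals, so a fall per cell cannot be told from a change in their share within these sums. With them left out, untreated against healthy animals gave a log2 fold change of 0.34 for Omd (edgeR, adjusted p = 0.55). Omd was not called in that comparison with these cells either. Since Omd was higher in the cells left out, a smaller fall follows from that choice. No conclusion is drawn from it for the falls in inhibited animals. Col8a1 was at 271, 338 and 227 CPM in IL-17-inhibited animals, 343, 142 and 225 CPM in TNF-inhibited animals, 278, 309 and 273 CPM in untreated animals, 233, 202, 440.3, 592 and 415 CPM in FAP-sorted animals and 287, 213 and 339.6 CPM in healthy animals. These groups overlapped throughout, and no comparison of Col8a1 passed the test. Cd200r1, which codes for the receptor of CD200, was at 0 CPM in all 17 animals.

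As a share of an animal's fibroblasts, Cd200+ cells made up 13.2%, 15.9% and 14.2% in IL-17-inhibited animals, 8.31%, 7.41% and 14.8% in TNF-inhibited animals, 4.60%, 5.89% and 7.59% in untreated animals and 8.81%, 9.24% and 9.93% in healthy animals. FAP-sorted animals had 3.82 to 10.0%. The untreated animals were below all healthy animals and the IL-17-inhibited animals overlapped with 1 TNF-inhibited animal. The 9 unsorted arthritic animals averaged 10.2% ± 4.29 and the 3 healthy animals 9.33% ± 0.563 (SD), a difference of 0.889 percentage points (exact permutation test within libraries, two-sided, p = 0.625, adjusted p = 0.781 over the 5 fibroblast classes; smallest possible p = 0.0156). Between the 3 arthritic groups the shares differed with F = 7.74 (exact permutation test, p = 0.0429), which did not pass after adjustment over the 5 classes (adjusted p = 0.101).

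Arthritic and healthy Cd200+ cells differed in how many held bone transcripts. A count of 20 or more UMIs of the 10 osteoblast markers per cell, a limit set after the data were seen, was reached by 64 of 743 Cd200+ cells of IL-17-inhibited animals, 36 of 397 of TNF-inhibited animals, 16 of 302 of untreated animals, 2 of 413 of FAP-sorted animals and 62 of 157 of healthy animals. Per animal these were 7.21 to 10.7% in IL-17-inhibited, 7.09 to 12.8% in TNF-inhibited, 2.5 to 8.22% in untreated, 0 to 0.952% in FAP-sorted and 37.9 to 42.0% in healthy animals. Healthy animals stood apart from every other group. Near the limit, with 15 to 24 such UMIs, were 44 cells of IL-17-inhibited, 15 of TNF-inhibited, 5 of untreated, 4 of FAP-sorted and 13 of healthy animals. Among healthy Il6+ cells, 1 of 639 reached the limit.

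**Figure D2:**
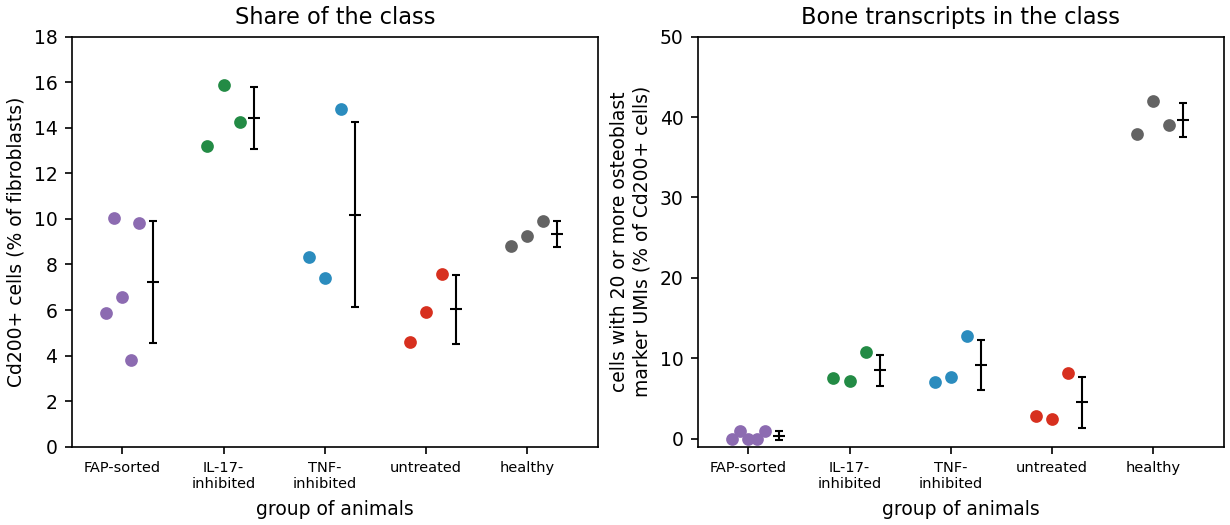
Left, Cd200+ cells as a percentage of the fibroblasts of each animal, by group (points are animals, bars mean and SD). Right, percentage of Cd200+ cells with 20 or more UMIs of osteoblast markers: the healthy animals lie at 37.9 to 42.0% and the others at 12.8% or less.

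The healthy bone-transcript cells included 2 sets with nearly no cell in common. In 20 healthy cells with 20 or more UMIs of Ibsp (bone sialoprotein), the median was 42.5 Ibsp and 22.5 Chad UMIs, the cartilage cytokine Cytl1 was at 5248 CPM, though present in only 7 of the 20, and 35% had a Runx2 UMI. In 32 healthy cells with 20 or more UMIs of osteocalcin (Bglap and Bglap2), Cytl1 was at 2.74 CPM and 78.1% had a Runx2 UMI. Only 1 cell was in both sets. A Cd200 UMI was in 90.0% of the Ibsp cells and 90.6% of the osteocalcin cells, and an Omd UMI in 95% and 90.6%. Col8a1 differed, at 25% and 71.9%. The other 106 healthy cells had a Cd200 UMI in 67.0%, an Omd UMI in 59.4% and a UMI of Tnmd, a tendon membrane protein, in 32.1%. These are cells of 3 animals, sorted by the same transcripts, so the values are descriptive.

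Untreated arthritic animals were then compared with healthy animals within Cd200+ cells, to show what arthritis with no inhibitor goes with in this class. UMIs were summed per animal, and edgeR's quasi-likelihood test was run over 9264 genes, with Benjamini-Hochberg adjusted p under 0.05 as the threshold. Several complement, cytokine and protease genes were higher in untreated animals, several bone and cartilage genes were lower, and matrix genes changed in either direction. In all, 223 genes (2.41%) were higher and 173 (1.87%) lower in untreated animals. The 2 groups did not overlap in 2018 of the 9264 genes. Here and below, genes named for the largest rises and falls were picked among such genes. Their lack of overlap therefore adds no support. Fold changes are log2 values with their SE.

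C3, the central complement component, reached 5583, 5341 and 4666 CPM in untreated animals, against 539, 307 and 387 CPM in healthy animals (log2 fold change 3.74 ± 0.29, adjusted p = 2.3e-06). Every untreated animal was above every healthy one, and the means were 5197 ± 476 and 411 ± 118 CPM (SD, n = 3 each). Cfb, the factor B protease of the alternative complement pathway, was at 559, 1293 and 934 CPM in untreated and 226, 119 and 157 CPM in healthy animals (log2 fold change 2.55 ± 0.28, adjusted p = 5e-05). Of 11 complement genes tested, 7 rose and none fell, among them C3, Cfb, C2 and C1ra, with a median log2 fold change of 1.30, against -0.0073 over all genes tested.

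Of 23 cytokine and chemokine genes, 10 rose and 1, Cxcl2, fell (median 1.34). Cxcl5, a neutrophil chemokine, was at 931, 673 and 814 CPM in untreated and 128, 116 and 157 CPM in healthy animals (log2 fold change 2.67 ± 0.44, adjusted p = 0.0018). The groups did not overlap. Il6, Lif, Ccl2, Ccl7, Cxcl9, Cxcl12, Cxcl14, Il33 and Tnfsf11, the osteoclast differentiation factor RANKL, were the others that rose. Of 21 IL-17 response genes 8 rose and Cxcl2 fell (median 1.11), and of 31 interferon response genes 7 rose and none fell (median 1.30). Cxcl9, an interferon-induced T cell chemokine, passed narrowly (log2 fold change 2.42 ± 0.66, adjusted p = 0.049) and not without untreated animal 2 or 3 or healthy animal 1 or 3 (adjusted p up to 0.18). The chitinase-like secreted protein Chil1 (2.57 ± 0.42), the activin subunit gene Inhba (2.58 ± 0.47) and the BMP antagonist Chrdl1 (2.10 ± 0.37) also rose, as did the NF-kB inhibitor Tnfaip3 (1.06 ± 0.20, adjusted p = 0.0044), while the adhesion molecule Icam1 fell (-0.81 ± 0.13, adjusted p = 0.0017).

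In the matrix, Mmp3 (stromelysin 1) was at 5097, 4325 and 3782 CPM in untreated animals, against 1140, 1189 and 1281 CPM in healthy animals (log2 fold change 1.96 ± 0.17, adjusted p = 4.9e-06), again with no overlap. Mmp3, Mmp13 and Mmp14 were the 3 of 18 matrix degradation genes that rose, and none fell (median 0.38). Fmod, one of the genes that mark the class, reached 1415, 1443 and 1527 CPM in untreated and 581, 500.5 and 378 CPM in healthy animals (log2 fold change 1.67 ± 0.25, adjusted p = 0.001). Col12a1 was at 786, 707 and 713 CPM in untreated and 302, 406 and 314 CPM in healthy animals (log2 fold change 1.19 ± 0.15, adjusted p = 0.00019). In neither gene did the groups overlap. Postn, periostin of remodelling matrix, rose (log2 fold change 1.03 ± 0.20, adjusted p = 0.0065). Other matrix genes fell: Col15a1, a basement membrane collagen, was at 18.9, 16.1 and 18.8 CPM in untreated and 94.9, 76.8 and 43.0 CPM in healthy animals (log2 fold change -1.96 ± 0.32, adjusted p = 0.0018). Eln, elastin, was at 18.9, 12.7 and 26.2 CPM in untreated and 562, 69.4 and 4.30 CPM in healthy animals (log2 fold change -3.43 ± 0.87, adjusted p = 0.033). The groups overlapped, and the call was lost without healthy animal 1 or without any 1 of the untreated animals (adjusted p up to 0.66). By list, small leucine-rich proteoglycans rose in 2 and fell in 2 of 14 (Fmod and Bgn, Tsku and Chad; median 0.031), elastic fibre genes rose in 2 and fell in 2 of 17 (Ltbp2 and Fbln1, Eln and Ltbp4; median 0.26), and none of 21 fibrillar collagen genes passed in either direction (median -0.030). Single genes with large rises were the endothelial and stromal membrane protein Ecscr (3.44 ± 0.41), the adhesion molecule Chl1 (3.21 ± 0.33) and the monooxygenase Cyp1b1 (3.11 ± 0.39).

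Against these stood the bone and cartilage genes. Bglap, one of the osteocalcin genes, was at 51.3, 31.4 and 60.9 CPM in untreated animals, against 909.8, 599.6 and 1040 CPM in healthy animals (log2 fold change -4.08 ± 0.26, adjusted p = 2.3e-07). Its near-identical copy Bglap2 was at 32.4, 40.8 and 77.4 CPM in untreated and 995, 1038 and 1548 CPM in healthy animals (log2 fold change -4.39 ± 0.29, adjusted p = 2.6e-07), and how reads were split between the copies is uncertain. Every untreated animal was far below every healthy one in both. Ibsp was at 122, 117 and 362 CPM in untreated and 624, 3090 and 1651 CPM in healthy animals, with a wide range among the healthy (log2 fold change -3.04 ± 0.53, adjusted p = 0.0029). Chad, the second gene in the identity of the class, was at 340.2, 122 and 293 CPM in untreated and 1469, 1301 and 1058 CPM in healthy animals (log2 fold change -2.30 ± 0.33, adjusted p = 0.00054), and Wif1, a WNT inhibitor, at 45.9, 30.1 and 89.3 CPM in untreated and 272, 144 and 399.8 CPM in healthy animals (log2 fold change -2.16 ± 0.37, adjusted p = 0.0025). Cytl1 was at 16.2, 0 and 25.04 CPM in untreated and 494, 917 and 658 CPM in healthy animals (log2 fold change -5.58 ± 0.52, adjusted p = 8.3e-06).

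Of 5 osteoblast markers 4 fell (median -3.04), as did 3 of 5 chondrocyte markers (median -1.46) and 4 of 17 bone remodelling genes (median -0.31), among which Mgp and Tnfsf11 rose. The summed level of the 10 osteoblast markers was 257 to 629.9 CPM in untreated and 2823 to 5245 CPM in healthy animals, with Mepe at 0 to 2.15 CPM throughout, and that of the 14 chondrocyte markers 245 to 481 CPM in untreated and 1588 to 1886 CPM in healthy animals, with Matn1 at 0. With the bone-transcript cells left out of both groups, an alternative added after the data were seen, the log2 fold change was -0.38 (adjusted p = 0.64) for Bglap2, -0.48 (adjusted p = 0.71) for Ibsp, -0.61 (adjusted p = 0.56) for Wif1 and -3.02 (adjusted p = 0.19) for Cytl1. It stayed past the threshold for Bglap at -1.43 (adjusted p = 0.0065) and for Chad at -1.99 (adjusted p = 0.0016), and C3 was at 3.54 (adjusted p = 4.6e-06). The cells were left out by their osteoblast marker UMIs. For osteoblast markers such as Bglap2 and Ibsp a smaller fall therefore follows from that choice, and no conclusion is drawn from it.

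Muscle transcripts moved with the groups too: 6 of 7 muscle markers were higher in untreated animals (median 1.91), at a summed 165 to 858 CPM in untreated and 98.9 to 201 CPM in healthy animals, and in Il6+ cells at 222 to 401 CPM in untreated and 127 to 689 CPM in healthy animals. Neutrophil markers summed to 28.5 to 70.2 CPM in untreated and 6.45 to 19.8 CPM in healthy animals, with Camp at 0 in the healthy, and leukocyte markers to 24.7 to 87.1 CPM in untreated and 4.96 to 10.7 CPM in healthy animals. The part of these markers in the other results, the immune genes included, was not tested. The number of genes called was 192 without untreated animal 2, 233 without untreated animal 3, 224 without healthy animal 3, 100 with library as a term and 95 against healthy animal 1 alone, in place of 396. Against healthy animal 1 alone, 23 of 51 named genes kept the call, C3, Bglap, Cytl1, Mmp3 and Col12a1 among them, and 28 kept the direction only. Those that lost it included Cxcl5 (adjusted p = 0.12), Fmod (0.12), Inhba (0.15), Chrdl1 (0.2), Tnfaip3 (0.22), Icam1 (0.062) and Ibsp, whose log2 fold change was -1.49 (0.28). The fit with library as a term also sets untreated animals against healthy animal 1 only, so it is not a separate check. These genes lost the call there too.

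**Figure D3:**
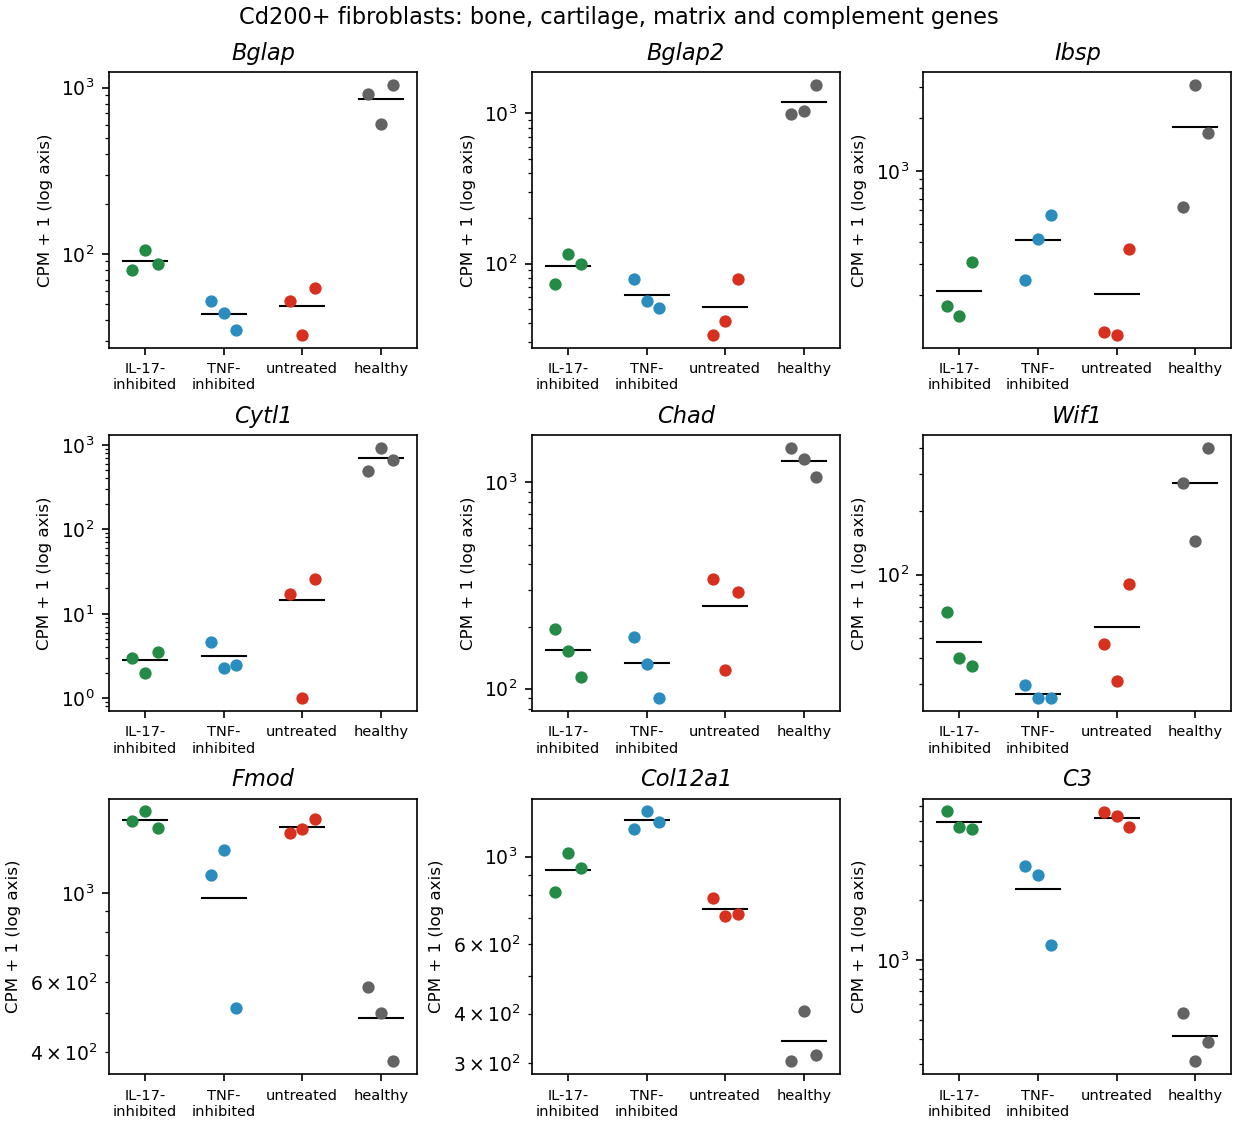
Level of 9 genes in Cd200+ cells of each animal (CPM plus 1, log axis) in IL-17-inhibited, TNF-inhibited, untreated and healthy animals; bars are group means. The bone and cartilage genes Bglap, Bglap2, Ibsp, Cytl1, Chad and Wif1 are highest in healthy animals, and Fmod, Col12a1 and C3 are higher in untreated than in healthy animals without overlap.

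TNF-inhibited animals were next compared with untreated ones, the same 3 animals that IL-17-inhibited animals are compared with further on. Interferon response genes were higher in TNF-inhibited animals, as were Mmp13, Timp1 and Ptx3. Of the 9264 genes, 57 (0.615%) were higher and 42 (0.453%) lower in TNF-inhibited animals. The 2 groups did not overlap in 1900 of the 9264. Of 31 interferon response genes, 12 rose and none fell, and the median was 1.94, against -0.0057 over all genes. All 31 had a positive fold change.

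Cxcl9 was at 944, 824 and 4121 CPM in TNF-inhibited animals, against 99.9, 288 and 344 CPM in untreated animals (log2 fold change 3.08 ± 0.57, adjusted p = 0.017). Its partner chemokine Cxcl10 was at 2654, 1786 and 6323 CPM in TNF-inhibited and 1002, 902 and 725 CPM in untreated animals (log2 fold change 2.17 ± 0.38, adjusted p = 0.015). Neither overlapped, and TNF-inhibited animal 3 was highest by a wide margin. Gbp2, a guanylate-binding GTPase of cell-autonomous defence, was at 778, 627 and 2563 CPM in TNF-inhibited and 97.2, 289.5 and 459 CPM in untreated animals (log2 fold change 2.31 ± 0.47, adjusted p = 0.026), without overlap. Gbp3, a related GTPase, was at 121, 95.8 and 409 CPM in TNF-inhibited and 13.5, 30.8 and 74.0 CPM in untreated animals (log2 fold change 2.32 ± 0.50, adjusted p = 0.034). TNF-inhibited animal 3 again led in both. Irgm1, a GTPase of the same defence, was at 146, 155 and 389.7 CPM in TNF-inhibited and 29.7, 48.1 and 97.3 CPM in untreated animals (log2 fold change 1.98 ± 0.41, adjusted p = 0.028). Gbp2, Gbp3 and Irgm1 lost the call without that animal and without untreated animal 1 or 2 (adjusted p up to 0.12), Cxcl9 without any 1 of the untreated animals (up to 0.075) and Cxcl10 without untreated animal 2 or 3 (up to 0.063). Ifi203, an interferon-inducible DNA-binding protein, kept it whichever animal was left out, at 263, 181 and 404 CPM in TNF-inhibited and 18.9, 44.1 and 58.0 CPM in untreated animals (log2 fold change 2.78 ± 0.32, adjusted p = 0.00068).

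The promoters of the interferon genes were searched for short motifs. The repeat of GAAA, any 2 bases and GAAA, the core of the interferon-stimulated response element, was counted on both strands of the 250 bases before each start in RefSeq's promoter table (GRCm38.p6); the motif was picked after the list was seen. It was in 17 of the 29 interferon genes with a promoter there (58.6%) and in 13 of 21 that rose in TNF-inhibited against healthy animals (61.9%), against 978 of 32851 promoters in the table (2.98%) and 233 of 7331 genes tested in the class (3.18%). The STAT-type motif TTCNNNGAA was in 9 of 29 (31.0%), 6 of 21 (28.6%), 2306 promoters (7.02%) and 504 tested genes (6.87%). The 2 motifs can overlap. A match is a description of these letters, not evidence that a factor binds. The stretches that hold the repeat in 4 of the genes above follow, 5′ to 3′ on the strand of the gene, with the repeat (or its reverse complement) in capitals; overlapping repeats are capitalised as 1 run. Cxcl10 is read from chr5:92349013-92349132 on the minus strand, Gbp2 from chr3:142620543-142620662 and Gbp3 from chr3:142559924-142560043 on the plus strand, and Irgm1 from chr11:48871421-48871540 on the minus strand.
Cxcl10: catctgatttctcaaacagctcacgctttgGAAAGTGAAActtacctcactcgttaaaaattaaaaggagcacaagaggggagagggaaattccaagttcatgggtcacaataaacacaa
Gbp2: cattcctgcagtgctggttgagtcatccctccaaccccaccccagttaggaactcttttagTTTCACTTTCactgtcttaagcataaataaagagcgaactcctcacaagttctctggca
Gbp3: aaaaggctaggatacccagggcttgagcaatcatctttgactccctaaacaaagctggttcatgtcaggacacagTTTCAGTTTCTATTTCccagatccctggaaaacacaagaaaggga
Irgm1: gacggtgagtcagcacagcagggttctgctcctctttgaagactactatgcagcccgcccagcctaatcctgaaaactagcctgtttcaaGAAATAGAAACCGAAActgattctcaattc
The Cxcl10 stretch ends 124 bases before its start, and the others end at the base before it. Gbp3 and Irgm1 hold 2 overlapping repeats, Cxcl10 and Gbp2 1 each.

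Outside the interferon genes, Timp1, an inhibitor of matrix proteases, was at 3683, 3627 and 4834 CPM in TNF-inhibited and 1409, 2202 and 1820 CPM in untreated animals (log2 fold change 1.30 ± 0.18, adjusted p = 0.0034). Mmp13 (collagenase 3) was at 4964, 6104 and 8071 CPM in TNF-inhibited and 1415, 2438 and 2214 CPM in untreated animals (log2 fold change 1.79 ± 0.33, adjusted p = 0.016; lost without untreated animal 1 or 3, adjusted p up to 0.08). Both lay above every untreated animal. Bmp2, a bone morphogenetic protein, rose (log2 fold change 1.25 ± 0.19, adjusted p = 0.0072) to 443, 579.8 and 703 CPM in TNF-inhibited animals, against 243, 300.2 and 249.8 CPM in untreated animals, and Col12a1 rose further (log2 fold change 0.89 ± 0.14, adjusted p = 0.012). Of 23 cytokine genes 7 rose (Il6, Lif, Ccl2, Cxcl1, Cxcl2, Cxcl9 and Cxcl10) and 1 fell (median 0.59). That one was Il33, an alarmin of stromal nuclei, at 2.99, 2.61 and 3.76 CPM in TNF-inhibited and 13.5, 14.0 and 26.7 CPM in untreated animals (log2 fold change -2.48 ± 0.42, adjusted p = 0.014; lost without untreated animal 3, adjusted p = 0.098). Of 21 IL-17 response genes, 4 rose (Il6, Cxcl1, Cxcl2 and Mmp13) and none fell (median 0.18).

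Among the genes that fell were 3 of 14 small leucine-rich proteoglycans, Aspn, Prelp and Ecm2 (median -0.47), and Cd34, a sialomucin of progenitor-type fibroblasts, at 11.4, 14.98 and 9.03 CPM in TNF-inhibited and 27.0, 44.8 and 47.2 CPM in untreated animals (log2 fold change -1.69 ± 0.29, adjusted p = 0.015; lost without untreated animal 2 or 3, adjusted p up to 0.064). The matrix protein gene Fbln7 was lower too (-1.82 ± 0.31, lost without untreated animal 3). None of 17 bone remodelling genes and none of 11 complement genes passed (medians -0.0091 and -0.095). Muscle markers fell in 5 of 7 (median -2.04), at a summed 129 to 166 CPM in TNF-inhibited animals, against 165 to 858 CPM in untreated animals, and their part in the other results was not tested. Leaving out untreated animal 1, 2 or 3 gave 29, 31 or 24 calls in place of 99, and leaving out TNF-inhibited animal 3 gave 37. With library as a term, estimated through the healthy animals, no gene passed in edgeR (494 at an unadjusted p under 0.05).

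IL-17-inhibited animals differed from untreated ones in another mix: antigen-presentation genes and Ccl5 were higher, and the acute-phase gene Lcn2 and the granulocyte factor Csf3 were lower. Here 68 genes (0.734%) were higher and 69 (0.745%) lower in IL-17-inhibited animals. The 2 groups did not overlap in 2124 of the 9264 genes. Ccl5, a chemokine of T cells and monocytes, was at 448, 328 and 354 CPM in IL-17-inhibited animals, against 5.40, 16.7 and 18.2 CPM in untreated animals (log2 fold change 4.62 ± 0.59, adjusted p = 0.00054). All IL-17-inhibited animals were far above the rest. H2-K1, a class I histocompatibility gene, was at 1503, 2456 and 2367 CPM in IL-17-inhibited and 575, 628 and 702 CPM in untreated animals (log2 fold change 1.77 ± 0.24, adjusted p = 0.00088). H2-Q6 and H2-Q7 rose as well (2.82 ± 0.26 and 2.81 ± 0.34), although reads of these near-identical genes may be split between them, and H2-Q7 turned to -1.60 (adjusted p = 0.89) with library as a term.

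Of 31 interferon genes 6 rose and none fell (median 1.34, against -0.0010 over all genes). Besides H2-K1 they were B2m, H2-D1, Psmb8, Psmb9 and Cxcl9, mostly class I presentation genes. B2m also carries the hashtag antibodies. Cxcl9 was at 1684, 2587 and 2293 CPM in IL-17-inhibited animals, against the untreated values above (log2 fold change 3.15 ± 0.57, adjusted p = 0.011; lost without untreated animal 2, adjusted p = 0.057). Nos2, inducible nitric oxide synthase, was at 244, 352 and 212 CPM in IL-17-inhibited and 13.5, 53.5 and 72.8 CPM in untreated animals (log2 fold change 2.38 ± 0.51, adjusted p = 0.028; lost in 5 of 6 fits that leave out 1 animal, all but that without IL-17-inhibited animal 1).

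Lcn2, a siderophore-binding protein induced by IL-17, was at 97.0, 102 and 116 CPM in IL-17-inhibited and 732, 382 and 354 CPM in untreated animals (log2 fold change -2.15 ± 0.43, adjusted p = 0.022), without overlap, though the call was lost in 5 of 6 fits that leave out 1 animal, all but that without untreated animal 3 (adjusted p up to 0.099), and the log2 fold change was 0.13 (adjusted p = 1.00) with library as a term. Csf3 was at 3.92, 7.61 and 7.15 CPM in IL-17-inhibited and 10.8, 148 and 22.2 CPM in untreated animals (log2 fold change -3.34 ± 0.61, adjusted p = 0.012), with 1 untreated animal far above the rest; the call was lost without untreated animal 2 or IL-17-inhibited animal 2 or 3 (adjusted p up to 0.14). These were the only 2 of 21 IL-17 response genes that passed, both lower (median -0.24). Of 14 myofibroblast genes 2 rose and none fell (median 0.32): Acta2, smooth muscle actin, at 42.1, 50.2 and 40.0 CPM in IL-17-inhibited and 10.8, 10.7 and 25.04 CPM in untreated animals (log2 fold change 1.42 ± 0.34, adjusted p = 0.048), and Postn, at 762, 703 and 674 CPM in IL-17-inhibited and 359, 336 and 462 CPM in untreated animals (log2 fold change 0.93 ± 0.19, adjusted p = 0.022). In both genes every IL-17-inhibited animal was the higher, and both calls were lost in 5 of 6 fits that leave out 1 animal, all but that without untreated animal 3 (adjusted p up to 0.25 for Acta2 and 0.11 for Postn). The transcription factor gene Foxs1 (2.29 ± 0.37) and the oxygen-sensing hydroxylase gene Egln3 (1.66 ± 0.27) rose, each lost without untreated animal 2.

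No small leucine-rich proteoglycan (0 of 14), fibrillar collagen (0 of 21) or bone remodelling gene (0 of 17) passed in this comparison, with medians of -0.17, 0.23 and 0.071. All 7 muscle markers fell (median -2.81), at a summed 76.6 to 87.7 CPM in IL-17-inhibited animals, against 165 to 858 CPM in untreated animals. Summed leukocyte markers were at 48.0 to 162 CPM in IL-17-inhibited, 24.7 to 87.1 CPM in untreated and 4.96 to 10.7 CPM in healthy animals, and Cd74 alone was at 42.6, 156 and 95.8 CPM in IL-17-inhibited animals. Ptprc was at 1.14 CPM or less and Cd3e at 0 in each of these animals. The 137 calls became 91, 30 and 63 without untreated animals 1, 2 and 3, and 31 and 34 without IL-17-inhibited animals 2 and 3. With library as a term no gene passed in edgeR (568 at an unadjusted p under 0.05).

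Set directly against each other, IL-17-inhibited animals had more Ccl5 and more of some myofibroblast genes, and less of some IL-17 response genes, than TNF-inhibited animals. In IL-17-inhibited animals 91 genes (0.982%) were higher and 70 (0.756%) lower. The 2 groups did not overlap in 1866 of the 9264 genes. Ptx3, a secreted pentraxin, was at 563, 569.5 and 517 CPM in IL-17-inhibited animals, against 2439, 1773 and 1980 CPM in TNF-inhibited animals (log2 fold change -2.002 ± 0.18, adjusted p = 5e-05). Untreated animals had 532, 700 and 572 CPM, so the IL-17-inhibited animals lay near them and the TNF-inhibited animals well above (TNF-inhibited against untreated log2 fold change 1.91 ± 0.18, adjusted p = 0.00011, named after its values were seen). Il6 was at 1378, 1185 and 947 CPM in IL-17-inhibited and 3414, 1936 and 2961 CPM in TNF-inhibited animals (log2 fold change -1.33 ± 0.21, adjusted p = 0.0045), without overlap. Il6, Cxcl1, Mmp3 and Lcn2 were the 4 of 21 IL-17 response genes that fell, and none rose (median -0.48, against -0.0066 over all genes). Lif, a cytokine of the IL-6 family, was lower as well (-1.54 ± 0.30), a call lost without IL-17-inhibited animal 1 or 2 (adjusted p up to 0.08).

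In the other direction, Ccl5 was at 448, 328 and 354 CPM in IL-17-inhibited and 73.0, 33.2 and 5.27 CPM in TNF-inhibited animals (log2 fold change 3.20 ± 0.50, adjusted p = 0.0045). Of 14 myofibroblast genes 4 rose (Acta2, Tagln, Postn and Ltbp2) and none fell (median 0.34). Ltbp2, which binds fibrillin and latent TGF-beta, was at 194, 332 and 183 CPM in IL-17-inhibited and 70.0, 54.7 and 27.8 CPM in TNF-inhibited animals (log2 fold change 2.10 ± 0.35, adjusted p = 0.0068), and Col5a3, a minor fibrillar collagen, at 46.1, 70.3 and 79.8 CPM in IL-17-inhibited and 21.5, 20.2 and 10.5 CPM in TNF-inhibited animals (log2 fold change 1.79 ± 0.27, adjusted p = 0.0036). Each group kept to its own range in both genes. Fbln7 was higher (log2 fold change 2.43 ± 0.27, adjusted p = 0.00045), while the activin-binding follistatin gene Fst (-1.29 ± 0.23), the neurotrophin receptor gene Ntrk2 (-1.54 ± 0.19) and the thyroid hormone deiodinase gene Dio2 (-1.45 ± 0.19) were lower. Cd74, the class II invariant chain, was at 42.6, 156 and 95.8 CPM in IL-17-inhibited and 16.1, 7.82 and 1.505 CPM in TNF-inhibited animals (log2 fold change 3.37 ± 0.62, adjusted p = 0.012; lost without TNF-inhibited animal 2 or IL-17-inhibited animal 2, adjusted p up to 0.065, and at -1.34 with library as a term). Of 31 interferon genes 1 passed, H2-D1, which was higher (median -0.50). The 161 calls became 77 without TNF-inhibited animal 2 and 106, 38 and 60 without IL-17-inhibited animals 1, 2 and 3, and with library as a term no gene passed in edgeR (649 at an unadjusted p under 0.05).

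**Figure D4:**
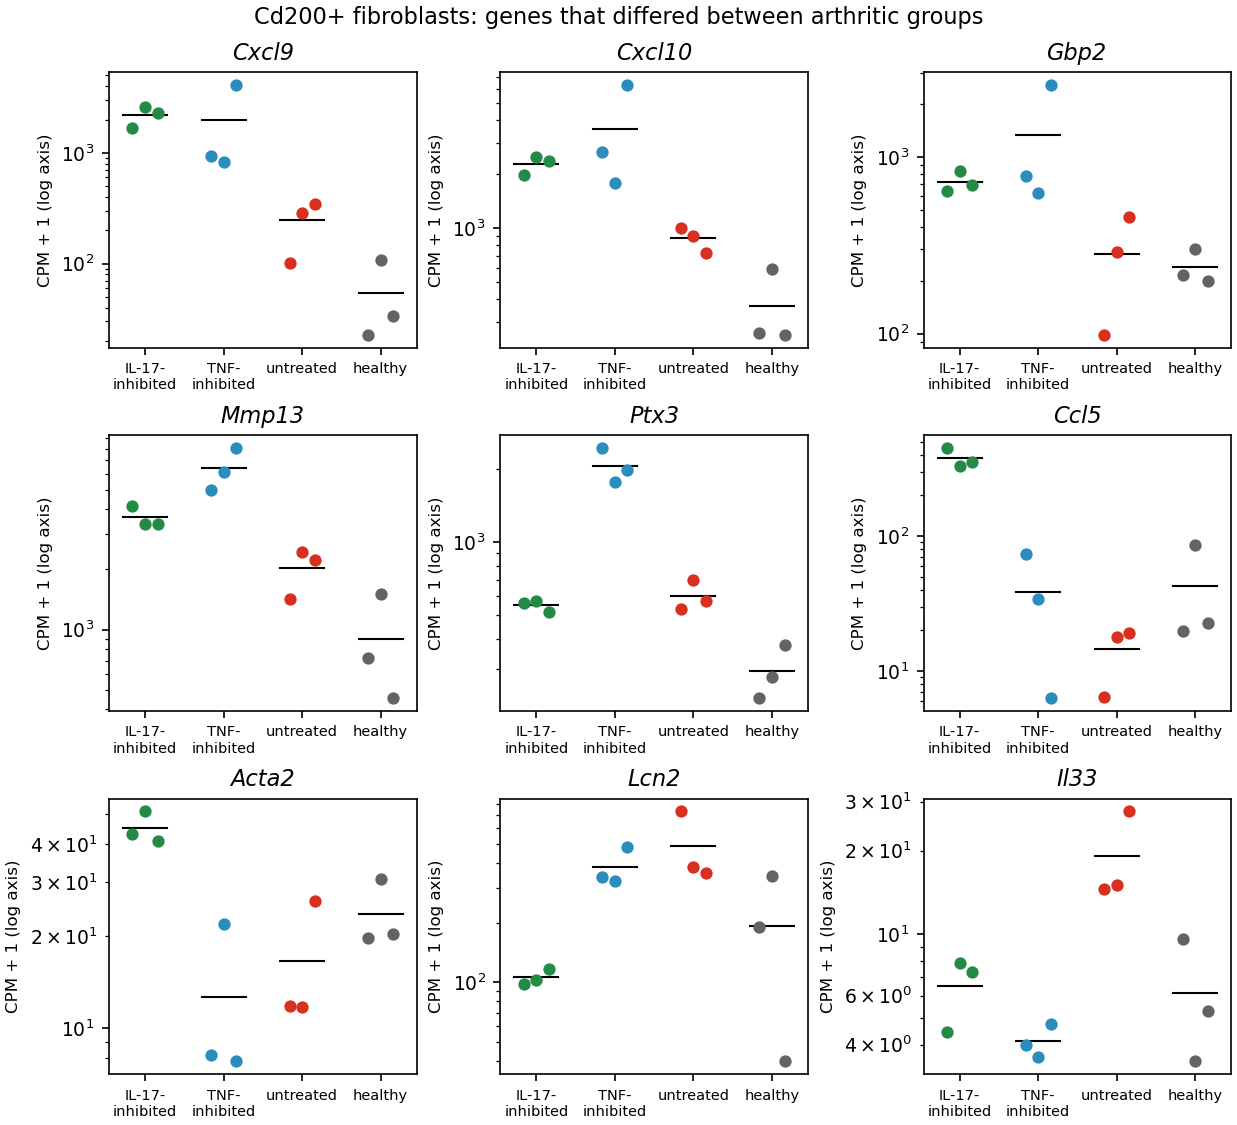
Level of 9 genes in Cd200+ cells of each animal (CPM plus 1, log axis) in IL-17-inhibited, TNF-inhibited, untreated and healthy animals; bars are group means. For Cxcl9, Cxcl10 and Gbp2 every inhibited animal lies above every untreated one, Ptx3 is high in TNF-inhibited animals (1773 to 2439 CPM), and Ccl5 in IL-17-inhibited animals (328 to 448 CPM).

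Both inhibited groups still differed from healthy animals in interferon, complement and bone genes. Against the same 3 healthy animals, 324 genes (3.5%) were higher and 236 (2.55%) lower in IL-17-inhibited animals, and 411 (4.44%) higher and 331 (3.57%) lower in TNF-inhibited animals. Of the 9264 genes, 2530 in IL-17-inhibited and 2528 in TNF-inhibited animals had no overlap with healthy animals. Interferon genes rose in 19 of 31 in IL-17-inhibited animals (median 2.56) and 24 of 31 in TNF-inhibited animals (median 2.73), and none fell, with medians over all genes of -0.020 and -0.019. Cxcl9 was at 21.6, 106 and 32.2 CPM in healthy animals, giving log2 fold changes of 5.58 ± 0.69 in IL-17-inhibited and 5.51 ± 0.68 in TNF-inhibited animals. Complement genes rose in 7 of 11 in both (medians 1.48 and 1.42), with Clu lower in TNF-inhibited animals. C3 itself was at 5629, 4694 and 4560 CPM in IL-17-inhibited and 2975, 2682 and 1193 CPM in TNF-inhibited animals, where TNF-inhibited animal 3 was closest to the healthy animals.

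Bone and cartilage genes were lower in both inhibited groups than in healthy animals. Chad was at 194, 152 and 112 CPM in IL-17-inhibited animals (-2.93 ± 0.33 against healthy animals) and 176, 130.3 and 88.8 CPM in TNF-inhibited animals (-3.05 ± 0.33), and Bglap at 78.4, 105 and 86.4 CPM (-3.11 ± 0.23) and 50.8, 43.0 and 33.9 CPM (-4.08 ± 0.25). All were below every healthy animal. Bone remodelling genes rose in 2 and fell in 6 of 17 in IL-17-inhibited animals (median -0.36), and rose in 3 and fell in 7 of 17 in TNF-inhibited animals (median -0.73); Spp1 and Tnfsf11 rose in both and Mgp in TNF-inhibited animals. Gdf10, a BMP-family ligand, was at 47.5, 53.5 and 75.8 CPM in IL-17-inhibited animals (-2.04 ± 0.31), 48.5, 34.5 and 30.9 CPM in TNF-inhibited animals (-2.58 ± 0.33) and 237, 280 and 286 CPM in healthy animals. The inhibited groups overlapped each other and were well below the healthy animals. Mmp13 was higher in both (2.15 ± 0.33 in IL-17-inhibited and 3.05 ± 0.34 in TNF-inhibited animals), as was Postn in IL-17-inhibited animals (1.96 ± 0.20). Leaving out healthy animal 1 gave 330 calls in IL-17-inhibited and 467 in TNF-inhibited animals, in place of 560 and 742. Without IL-17-inhibited animal 2 or 3 the first count was 338 or 353, and with library as a term the counts were 143 and 166.

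FAP-sorted animals had fewer muscle and bone transcripts in their Cd200+ cells than untreated animals, and more of some neutrophil and acute-phase transcripts. Cd200+ cells were 7.22% ± 2.67 of fibroblasts in the 5 FAP-sorted animals and 6.03% ± 1.5 in the 3 untreated animals (SD; difference 1.20 percentage points, exact permutation test, p = 0.482, 56 arrangements). Over 7055 genes, 102 (1.45%) were higher and 99 (1.4%) lower in FAP-sorted animals. The 2 groups did not overlap in 975 of the 7055. The muscle transcripts were nearly gone: Acta1 had no count in FAP-sorted animals, against 43.2, 177 and 199 CPM in untreated animals. All 6 muscle markers tested fell, and the 8 markers of the list summed to 1.23 to 11 CPM in FAP-sorted animals. In Il6+ cells the same sum was 2.10 to 5.98 CPM in FAP-sorted and 222 to 401 CPM in untreated animals, so this shift was not particular to the class. The 10 osteoblast markers summed to 43.9 to 69.9 CPM in Il6+ cells of FAP-sorted and 72.1 to 84.4 CPM in those of untreated animals. Bone transcripts were also lower: Ibsp was at 19.6, 54.4, 9.23, 41.8 and 44.1 CPM in FAP-sorted animals, against 122, 117 and 362 CPM in untreated animals (log2 fold change -2.52 ± 0.40, adjusted p = 0.0042), and 3 of 4 osteoblast markers and 5 of 15 bone remodelling genes fell, while Mgp rose (median -0.39, against -0.0070 over all genes).

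The neutrophil genes S100a9, at 90.1, 59.4, 46.1, 41.8 and 68.6 CPM in FAP-sorted and 10.8, 6.68 and 7.97 CPM in untreated animals (log2 fold change 3.03 ± 0.30, adjusted p = 4.9e-05), and S100a8 (log2 fold change 2.25 ± 0.30, adjusted p = 0.00076) were higher. The 8 neutrophil markers summed to 117 to 172 CPM in FAP-sorted and 28.5 to 70.2 CPM in untreated animals, and Ngp and Mpo, at 0 in the untreated animals, reached 9.90 and 4.40 CPM. In Il6+ cells the neutrophil sum was 94.6 to 121 CPM in FAP-sorted and 30.0 to 34.9 CPM in untreated animals, so this shift too was not particular to the class. Endothelial markers summed to 3.67 to 7.91 CPM in FAP-sorted and 19.9 to 78.2 CPM in untreated animals, and keratinocyte markers to 6.59 to 15.4 CPM in FAP-sorted and 22.7 to 43.2 CPM in untreated animals. The authors' stress score of Cd200+ cells had medians of 0.219 to 0.558 in FAP-sorted and 0.884 to 0.998 in untreated animals, and the median share of mitochondrial UMIs was 2.95 to 3.52% in FAP-sorted and 2.64 to 2.68% in untreated animals. None of these overlapped, and their part in the results was not tested. The acute-phase gene Hp (log2 fold change 1.77 ± 0.29, adjusted p = 0.0043) and the hindlimb transcription factor Pitx1 (log2 fold change 2.72 ± 0.30, adjusted p = 0.00012) were higher too, Hoxc10, a posterior patterning gene, passed (log2 fold change 3.37 ± 0.62, adjusted p = 0.011) but not without untreated animal 2, and Il6 was lower, at 758, 792, 812, 706 and 619.8 CPM in FAP-sorted and 1183, 1784 and 1461 CPM in untreated animals (log2 fold change -0.92 ± 0.15, adjusted p = 0.0042). Omd fell (log2 fold change -0.77 ± 0.15, adjusted p = 0.018), a call lost without untreated animal 3 (adjusted p = 0.11). Sort and library are the same split and cannot be told apart, and the sources used here do not give how ankles and wrists were divided between libraries. The 201 calls became 67 and 58 without untreated animals 2 and 3, and 107, 94, 116 and 85 without FAP-sorted animals 2, 3, 4 and 5.

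Whether the responses differed from those of another class was tested against Il6+ fibroblasts of the same animals, by the difference between the classes in each group effect, over 10572 genes. Between untreated and healthy animals, 26 genes (0.246%) had a higher fold change in Cd200+ than in Il6+ cells and 8 (0.0757%) a lower one. Cpxm2, a carboxypeptidase-like secreted protein, averaged 190.1 CPM in untreated and 22.3 CPM in healthy animals in Cd200+ cells, against 25.4 and 34.3 CPM in Il6+ cells (difference 3.36 ± 0.34, adjusted p = 6.9e-05). Per animal, Cpxm2 in Cd200+ cells was at 270, 136 and 164 CPM in untreated and 37.4, 12.4 and 17.2 CPM in healthy animals, without overlap. Against lining and Mmp3+ cells in place of Il6+ cells the Cpxm2 difference was 0.070 (adjusted p = 1.00). Alpl, the bone alkaline phosphatase, averaged 70.4 CPM in untreated and 382 CPM in healthy animals in Cd200+ cells, against 18.6 and 28.1 CPM in Il6+ cells (difference -1.68 ± 0.30, adjusted p = 0.011; lost without untreated animal 2 or healthy animal 2, adjusted p up to 0.072). Emb, an immunoglobulin-type adhesion protein, differed by -1.44 ± 0.23 (adjusted p = 0.0075), with means of 172 CPM in untreated and 211 CPM in healthy animals in Cd200+ cells, against 314 and 136 CPM in Il6+ cells. With lining and Mmp3+ cells as the other class, Alpl was at -1.38 (adjusted p = 0.09) and Emb at -3.35 (adjusted p = 3.2e-06). The largest differences, in Mb and Myh1, were muscle genes.

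Between TNF-inhibited and untreated animals, 13 genes (0.123%) differed upward and 9 (0.0851%) downward. Ifi203 averaged 283 CPM in TNF-inhibited and 40.4 CPM in untreated animals in Cd200+ cells, against 305 and 316 CPM in Il6+ cells (difference 2.83 ± 0.27, adjusted p = 1.8e-05). Ptx3 averaged 2064 and 601 CPM in Cd200+ cells and 2649 and 2597 CPM in Il6+ cells in the same order (1.81 ± 0.20, adjusted p = 9.8e-05). Both genes were at a similar mean in Il6+ cells of either group. Mmp13 averaged 6380 CPM in TNF-inhibited and 2022 CPM in untreated animals in Cd200+ cells, against 124 and 129 CPM in Il6+ cells (1.74 ± 0.32, adjusted p = 0.025; lost without untreated animal 1 or TNF-inhibited animal 2 or 3, adjusted p up to 0.088). Cd34 averaged 11.8 and 39.7 CPM in Cd200+ cells and 247 and 246 CPM in Il6+ cells (-1.79 ± 0.28, adjusted p = 0.0081), and Fhl1, a muscle and stromal LIM protein, differed by -1.43 ± 0.19 (adjusted p = 0.0016). With lining and Mmp3+ cells as the other class, Ifi203 (1.93), Mmp13 (1.42) and Fhl1 (-1.17) kept the call, and Ptx3 (1.10, adjusted p = 0.26) and Cd34 (-1.56, adjusted p = 0.14) did not. The count was 6 without untreated animal 1 and 11 without TNF-inhibited animal 3, in place of 22.

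Between IL-17-inhibited and untreated animals, 5 genes (0.0473%) differed upward and 8 (0.0757%) downward, and few of these calls held when 1 animal was left out: 0 were left without untreated animal 1 or without IL-17-inhibited animal 1, 1 without untreated animal 2 or IL-17-inhibited animal 3, 5 without IL-17-inhibited animal 2 and 7 without untreated animal 3. Lcn2 averaged 105 CPM in IL-17-inhibited and 489 CPM in untreated animals in Cd200+ cells, against 1692 and 2162 CPM in Il6+ cells (difference -1.74 ± 0.29, adjusted p = 0.035; up to 0.13 when 1 animal is left out; -0.022 with lining and Mmp3+ cells as the other class). Postn averaged 713 and 386 CPM in Cd200+ cells and 441 and 558 CPM in Il6+ cells (1.21 ± 0.24, adjusted p = 0.048; up to 0.22). The mean of Postn was higher in Cd200+ cells of IL-17-inhibited than of untreated animals, and lower in their Il6+ cells.

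**Figure D5:**
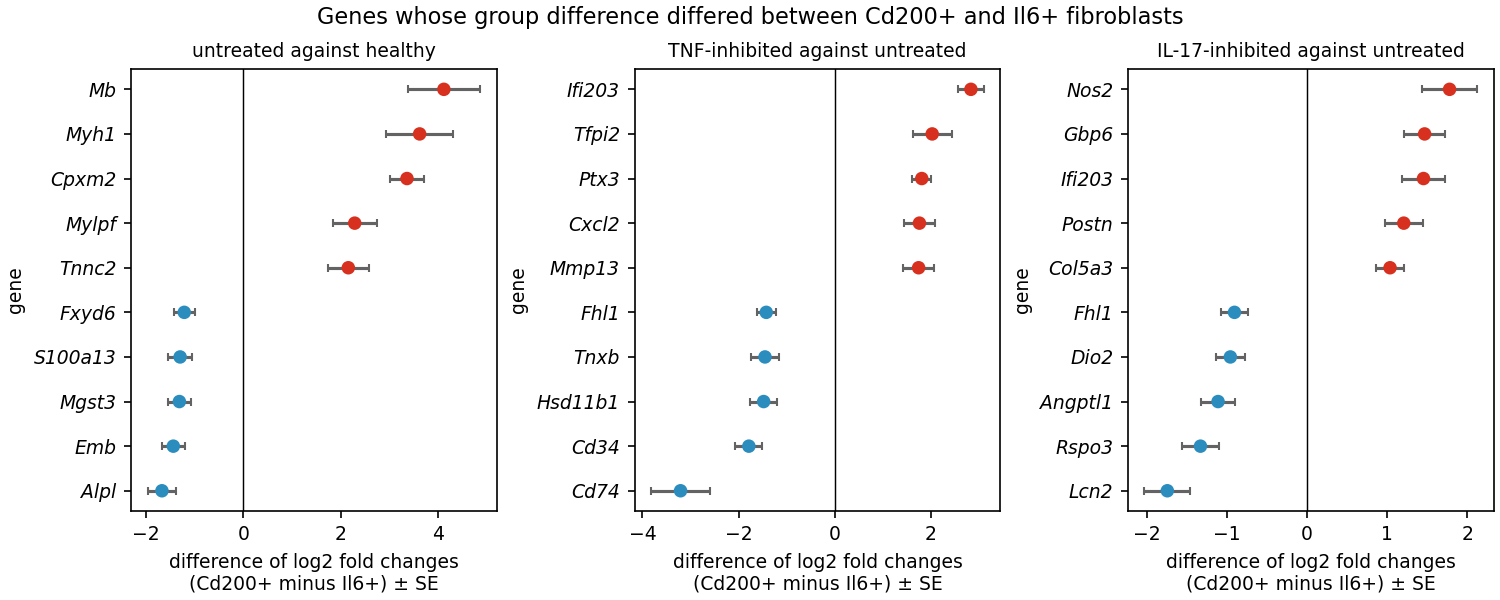
Difference between Cd200+ and Il6+ cells in the log2 fold change of 3 comparisons (untreated against healthy, TNF-inhibited against untreated, IL-17-inhibited against untreated); points are the difference, bars its SE. The muscle gene Mb is highest at 4.12, followed among other genes by Cpxm2 at 3.36 and Ifi203 at 2.83, and Cd74 is lowest at -3.21.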

How the data were processed

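Barcodes, genes and UMI counts of 4 10x libraries were used as deposited by the authors. The deposited matrices hold raw UMI counts for 32285 genes, made, per the file headers, with Cell Ranger 6.0.0 for the unsorted and 5.0.0 for the FAP-sorted library. The version in the submitters' processing notes is 6.0.6, and the build mm10. The wells were loaded above the usual number of cells, per the labels' protocols, and the sources used here do not give how doublets were removed by the authors; no doublet caller was run, and leaving out cells of high UMI count was an alternative. Cell classes, animals and the per-cell fraction and score values come from the deposited annotation, whose 24227 cells were joined to 47658 barcodes; the UMI totals of the annotation were equal to those of the matrices in 13444 cells and lower by at most 41 in the others. The mitochondrial fraction and the stress score were deposited by the authors and used only to describe the cells. No per-sample column was left unused.

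UMI counts were summed per animal over Cd200+ cells. Genes were filtered with filterByExpr, normalised by TMM and tested with edgeR 4.0.16 (R 4.3.3; limma 3.58.1), a quasi-likelihood test with Benjamini-Hochberg adjustment at 0.05, in 1 fit of the 12 unsorted animals and 1 of the 8 FAP-sorted and untreated animals. Differences between classes used 24 sums, with Cd200+ and Il6+ cells of each animal. CPM values use the UMI total of each animal's summed cells of the class, with no TMM scaling. The test was checked on simulated counts. The classes compared by identity were described and not tested, since the annotation used the same counts. Shares were compared by exact permutation tests. A cell type that is rarer and a transcript that is lower per cell cannot be told apart within a sum.

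Named genes were, per comparison, the 10 called with the largest rise and the 10 with the largest fall (at least 20 CPM in the higher group, groups without overlap), the 3 markers and the 2 called members of each list with the largest change, and for class differences the 5 largest each way; others are said to be named after their values were seen or are list members given by count. The members and gene lists were chosen with earlier results of these data known. Alternatives were DESeq2 1.42.0, its size factors, no filter on low counts, library or hashtag number as a term, cells with the highest hashtag, healthy animal 1 alone, lining and Mmp3+ cells in place of Il6+ cells, and each animal left out; sex as a term and the removal of bone-transcript cells were added after the data were seen. Intervals cover counting error only.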

Additional observations from a re-analysis of the deposited data

Results flagged for a closer look

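The difference between Cd200+ and Il6+ cells in a group effect passed edgeR's test of that difference for 30 named results. Between untreated and healthy animals it was 4.12 (log2) for Mb, 3.62 for Myh1, 2.29 for Mylpf and 2.16 for Tnnc2, which are muscle genes, and 3.36 for Cpxm2. It was -1.68 for Alpl, -1.44 for Emb, -1.32 for Mgst3, -1.30 for S100a13 and -1.22 for Fxyd6.

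Between TNF-inhibited and untreated animals the difference was 2.83 for Ifi203, 2.02 for Tfpi2, 1.81 for Ptx3, 1.76 for Cxcl2 and 1.74 for Mmp13. It was -3.21 for Cd74, -1.79 for Cd34, -1.48 for Hsd11b1, -1.45 for Tnxb and -1.43 for Fhl1.

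Between IL-17-inhibited and untreated animals it was 1.78 for Nos2, 1.47 for Gbp6, 1.45 for Ifi203, 1.21 for Postn and 1.03 for Col5a3. It was -1.74 for Lcn2, -1.33 for Rspo3, -1.11 for Angptl1, -0.96 for Dio2 and -0.91 for Fhl1. These calls depended on single animals, as given above.

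Of the 36 sets of values tested for a single animal far from the others of its group, 2 were flagged, at a limit of 1 in 20. In FAP-sorted animals Tnni2 was at 2.20 CPM and Mb at 1.32 CPM in the highest animal, and both were at 0 in the other 4. With 4 animals at 0, any count in the remaining animal gives this flag, so no conclusion is drawn from it.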

How the results depend on the processing

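With library as a term, which rests on the 3 healthy animals, the counts of called genes were 100 for untreated against healthy animals (91 shared with the 396 called), 166 for TNF-inhibited and 143 for IL-17-inhibited against healthy animals, and 0 in edgeR for each of the 3 comparisons between arthritic groups. Among named results, 70 of 266 kept their call with it, 185 kept the direction only and 11 turned. Those that turned were Mb (3.25) for TNF-inhibited against untreated animals; H2-Q7 (-1.60), Cox6a2 (2.67) and Lcn2 (0.13) for IL-17-inhibited against untreated animals; Cd74 (-1.34), Lcn2 (1.24), Ifi203 (0.98), Saa1 (0.59) and Il34 (-0.012) for IL-17-inhibited against TNF-inhibited animals; Abcc9 (0.16) for TNF-inhibited and Eln (1.99) for IL-17-inhibited against healthy animals. Against healthy animal 1 alone, 95 genes were called for untreated animals. The cause was not tested.

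With no filter on low counts, the calls were 772 for untreated against healthy, 482 for TNF-inhibited and 571 for IL-17-inhibited against untreated, 502 for IL-17-inhibited against TNF-inhibited, 965 for IL-17-inhibited against healthy and 576 for FAP-sorted against untreated animals, and 221, 192 and 170 for the class differences of untreated against healthy, TNF-inhibited against untreated and IL-17-inhibited against untreated animals. TNF-inhibited against untreated animals gave 170 calls in DESeq2 and 156 with sex as a term. Lining and Mmp3+ cells in place of Il6+ cells gave 667 class differences for untreated against healthy animals, and turned Angptl1 (0.12) and Dio2 (0.085) for IL-17-inhibited against untreated animals. DESeq2-type size factors gave 5 class differences for the last comparison. Of the named results, DESeq2 kept 294 of 303, size factors 325 of 333, the highest-hashtag cells 302 of 303, sex as a term 282 of 303, the removal of bone-transcript cells 240 of 294, the removal of cells of high UMI count 258 of 293 and lining and Mmp3+ cells in place of Il6+ cells 7 of 30 (21 kept the direction only and 2 turned).

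Leaving out 1 animal at a time gave 192 to 358 calls for untreated against healthy, 24 to 120 for TNF-inhibited and 30 to 106 for IL-17-inhibited against untreated, 38 to 164 for IL-17-inhibited against TNF-inhibited, 467 to 690 for TNF-inhibited and 330 to 484 for IL-17-inhibited against healthy, and 58 to 233 for FAP-sorted against untreated animals. Class differences ranged over 23 to 36, 6 to 21 and 0 to 7 in the order above. The share differences ranged from -0.918 to 2.73 percentage points for arthritic against healthy and from 0.480 to 2.05 for FAP-sorted against untreated animals, and F from 4.81 to 33.4 between arthritic groups.

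Hashtag numbers do not pair animals: deviations of animals with the same number correlated at -0.415 to 0.321 (9 pairs) and those of others at -0.275 to 0.378 (18 pairs). With the number as a replicate block, calls were 85 for FAP-sorted against untreated animals, 115 for TNF-inhibited and 140 for IL-17-inhibited against untreated animals, and 120 for IL-17-inhibited against TNF-inhibited animals. Depth limits the smaller sums most: a healthy group of 157 cells and 1564584 UMIs is the reference of 3 comparisons.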
